A study of Mus musculus with 6 samples.

Results

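L1Md_Gf is the name the deposited read lists give to one class of LINE-1 (L1) retrotransposon copies, and the data described here are the small RNA reads that were placed in copies of exactly that class. The lists held 644 such reads in 121 copies, out of 393511 reads in 13686 L1 copies of 36 classes. Copies appear in the lists only where they received a read, so the number of L1Md_Gf copies without reads is not known from them. Small RNA was sequenced from 6 libraries of mouse E14 embryonic stem cells (ESCs, strain 129/Ola, grown without feeders in 15% serum and LIF), 2 for each of 3 lentiviral pLKO.1 shRNAs. The shRNAs were a non-targeting sequence (shScr), a sequence against Tet1 (shTet1) and a sequence against Tet2 (shTet2), and all cells, controls included, were infected and then selected with puromycin for 3 days from 24 h after infection. The labels give the puromycin concentration as 1 µg/mL, whereas the methods of the study give another concentration. The labels do not say whether the 2 libraries of a condition came from separate cultures, so the p-values below measure only the spread between these libraries. Since the lists hold reads in L1 copies alone, the levels of Tet1 and Tet2, and the markers of ESCs, could not be checked in them.

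L1 elements move by copying their RNA back into DNA. A full-length copy begins with a 5′ untranslated region (5′ UTR) that holds the promoter and, in mouse, is built from tandemly repeated units called monomers. It is followed by ORF1, which encodes an RNA-binding protein, by ORF2, which encodes the endonuclease and reverse transcriptase, and by a 3′ UTR. The A, Tf and Gf subfamilies are the young ones that can still be mobile in mouse. TET enzymes oxidise methylated cytosines and thereby favour demethylation, and the study asked how depleting TET1 or TET2 affects such elements. Small RNAs from L1s can be siRNAs that DICER cuts from duplexes of sense and antisense RNA, piRNAs that PIWI proteins carry in germ cells, or fragments of longer transcripts, and they are told apart by length, strand and the position of their ends.

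The copies were checked against the primers that the study designed for each subfamily. The sequences below are the qPCR primers for L1Gf and for L1Tf, shown because they mark the 5′ UTR that each name stands for.
L1Gf forward: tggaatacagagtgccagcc
L1Gf reverse: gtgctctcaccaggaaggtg
L1Tf forward: gcctaagccacagcagca
L1Tf reverse: gctgtcaggttctctggcg
Neither L1Gf qPCR primer had an exact site in any of the 121 copies, nor did either primer of the L1Gf bisulphite pair, which was compared with the converted sequence. The best match in any copy differed from the L1Gf forward primer by 4 edits and from the reverse primer by 3. The forward primer was also not found in the 2000 bp upstream of any copy. Both occurred in copies of other classes. Of 214 listed copies with the forward primer, 210 were L1Md_T (4.29% of 4898). The reverse primer was in 710 listed copies, among them 388 of L1Md_T (7.92%), 259 of L1Md_F2 (8.33%) and 29 of L1Md_F (13.2%). The L1Tf forward primer was present in 54 of the 121 L1Md_Gf copies (44.6%) and the L1Tf reverse primer in 57 (47.1%), against 34.2% and 36.8% of the L1Md_T copies. By exact sites, the class name thus did not match the primers of the subfamily of the same name in these copies. The reads below are described by the class label only.

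**Figure D1:**
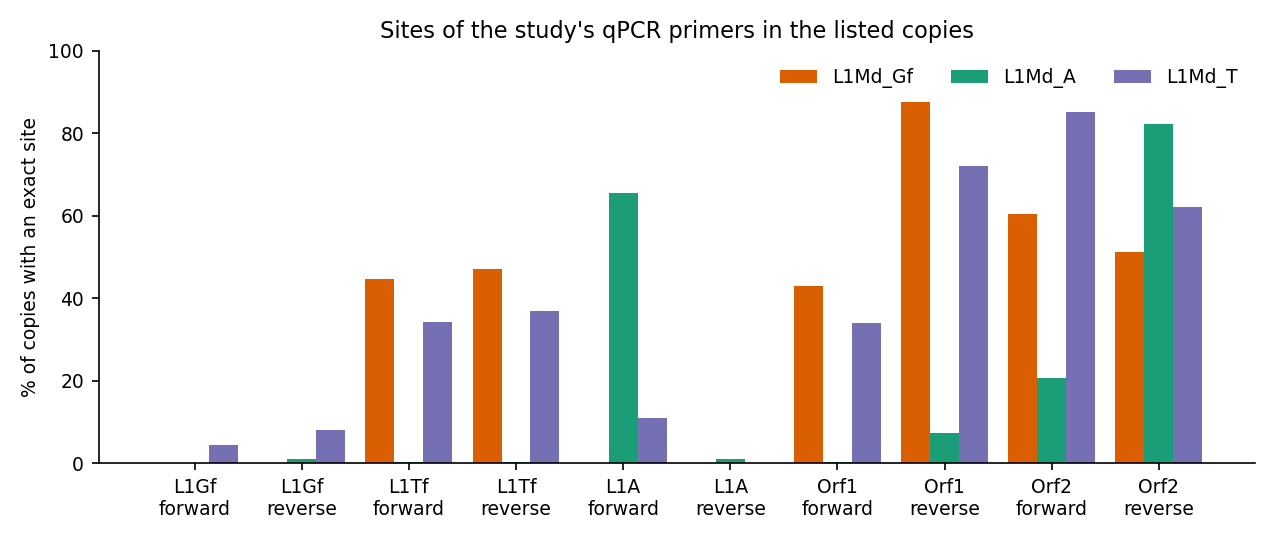
Percent of listed copies with an exact site of each qPCR primer (vertical axis) for the classes L1Md_Gf, L1Md_A and L1Md_T (colours), by primer (horizontal axis). L1Md_Gf copies have no bar at the L1Gf primers and reach 44.6% and 47.1% at the L1Tf primers.

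The primers within the reading frames were compared in the same way. The ORF1 forward primer had a site in 52 L1Md_Gf copies (43.0%), in 34.0% of L1Md_T and in 0.162% of L1Md_A copies, much like the L1Tf forward primer. The ORF1 reverse primer had one in 106 (87.6%), 72.1% and 7.37%. The ORF2 forward primer stood in 73 L1Md_Gf copies (60.3%), 85.1% of L1Md_T and 20.7% of L1Md_A copies, and the ORF2 reverse primer in 62 (51.2%), 62.1% and 82.2%. L1A forward, designed for the A subfamily, was in 65.6% of L1Md_A copies and in 0 of the 121. L1A reverse had an exact site in only 29 L1Md_A copies (0.938%) and in 0 of the 121. L1A reverse was rare everywhere, at 42 places of the genome and in 30 listed copies of all classes. The L1Gf forward and reverse primers occurred at 911 and 2168 places. The L1A bisulphite primers, compared with the converted sequence, had sites in 82.0% and 70.8% of L1Md_A copies. A pair of L1Tf primer sites facing each other within 400 bp was found 91 times in 47 copies, with a median span of 102 bp, and 40 copies held the L1Tf forward site more than once, up to 5 times.

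The reads themselves were nearly all different. The 644 reads covered 623 distinct genomic sequences, of which 608 were seen once, and 564 reads (87.6%) were identical to the genome. The 6 most frequent sequences of 18 to 30 bases are shown, as the genomic sequence under the read on the strand of the read, because they are the ones read more than once most often. Capitals mark the letters AAGATGGCG, the core of the recognition sequence of the transcription factor YY1.
sequence 1, sense: accttccggaccggaggacaggtgct
sequence 2, antisense: accAAGATGGCGaccgctg
sequence 3, antisense: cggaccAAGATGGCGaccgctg
sequence 4, antisense: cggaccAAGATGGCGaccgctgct
sequence 5, sense: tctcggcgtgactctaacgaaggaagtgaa
sequence 6, sense: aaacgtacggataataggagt
Sequence 1 had 4 reads, 1 in shTet1 replicate 1 and 3 in shTet2 replicate 1, all before ORF1 of the same copy on chromosome 1, and occurred at 4 places of the genome. The 3 reads of sequence 2 came from shScr replicate 2, and that sequence occurred at 7628 places. Sequences 3 to 6 had 2 reads each and occurred at 1972 to 4176 places. Sequences 2 to 4 are nested in each other and lay antisense to the region before ORF1, sequence 6 lay in ORF1 and sequence 5 after it. One place of each in the mm9 build, at which a read was listed, was chr1:32131019-32131044 on the minus strand for sequence 1, chrX:101363456-101363474 (minus) for sequence 2, chr9:18785258-18785279 (minus) for sequence 3, chr6:93326533-93326556 (minus) for sequence 4, chr9:25041961-25041990 (plus) for sequence 5 and chr12:43769091-43769111 (plus) for sequence 6.

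Most of these reads could have come from other L1 copies. A read in an L1Md_Gf copy had its exact sequence at a median of 2171 places of the genome, and the aligner chose among equal places at random. The sequence under the read was also carried by a listed L1Md_T copy for 586 reads (91.0%), by an L1Md_F2 copy for 483 (75%) and by an L1Md_A copy for 468 (72.7%), and by a median of 49 L1Md_Gf copies against 1676.5 copies of other classes. Only 31 reads (4.81%) had a single place. The counts per copy and per class below are therefore counts of where reads were placed.

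Genomic sequences found in L1Md_Gf copies and in no listed copy of another class lay under 39 reads (6.06%), of which 31 had a single place. Reads that differed from the genomic sequence were counted too. By library these were 9 and 18 reads for shScr, 1 and 4 for shTet1 and 7 and 0 for shTet2. A count of 0 in shTet2 replicate 2 allows up to 5.36% of its 56 reads, so the absence is not resolved at this depth. Of the 39 reads, 16 were antisense. The examples below, 1 read each, are the genomic sequences under 4 of them, and capitals mark the bases that differ from the closest stretch of any listed L1Md_T copy.
sequence 7, sense: accaacagactgggaaaggatctttacGt
sequence 8, sense: agaactgaaaagggagacGtaacaacagat
sequence 9, sense: aggtctgctgatagacggtaacagaTt
sequence 10, sense: AtggaaacagaaaCtaacagggacacagt
They lay at chr12:45589786-45589814, chr17:52685213-52685242, chr15:19990180-19990206 and chr5:8336395-8336423 (mm9, plus strand), and sequences 7 to 9 came from shScr replicate 2 while sequence 10 came from shTet2 replicate 1. Sequence 9 lay before ORF1 and the others after it. Sequences 7 to 9 differed from the closest L1Md_T stretch by 1 base each and sequence 10 by 2. The separation of the class from L1Md_T thus rested on very few bases of these genomic sequences. The reads of sequences 7 to 9 were identical to the genome. The read of sequence 10 was not, and whether it carried the marked bases was not checked.

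Reads were spread thinly over the copies. Of the 121 copies, 10 had 1 read, the median was 5 reads and 12 had 10 or more. The highest copy held 20 reads (3.11%) and the top 5 held 73 (11.3%). Reads in shScr were placed in 116 of the copies, those in shTet1 in 48 and those in shTet2 in 91, in the order of the number of reads, and 2 copies had a read in all 6 libraries.

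The copy with most reads, chr1:32126039-32131431 on the minus strand, had 4 and 4 reads for shScr, 1 and 0 for shTet1 and 8 and 3 for shTet2. It has 5 L1Tf forward primer sites, 1626 bp before ORF1 and 16 of its 20 reads there, and the reads in it had a median of only 5 places. The next, chr6:93326141-93331888 (plus), had 8 and 4 reads for shScr, 2 and 0 for shTet1 and 1 and 2 for shTet2, 13 of its 17 before ORF1. The copies chr17:69672762-69679684, chr10:15350584-15360623 and chr12:43767771-43773197, all on the plus strand, followed with 13, 12 and 11 reads. The top 4 had more than 1000 bp before ORF1 and 4 or 5 L1Tf forward sites, whereas the chromosome 12 copy had 744 bp and 1 site. All 5 kept a reading frame of the ORF1 length, and none overlapped an annotated gene.

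Of the 121 copies, 20 lay within annotated genes, all intronic since none touched an exon, and 101 overlapped no gene. The copies in genes held 90 reads (14.0%), and 15 of them lay on the strand opposite to the gene and 5 on the same strand. Those with most reads, picked after their values were seen, were a copy in C77370 on chromosome X and one in the noncoding Gm11884 on chromosome 4, with 9 reads each, and one in Car8, a carbonic anhydrase relative, with 7. The copies were 5002 to 10039 bp long (median 5408 bp). On the genome, 104 of them (86.0%) lay on the plus strand, against 45.5% of L1Md_T and 47.9% of L1Md_A copies. The cause of this imbalance was not tested.

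The position of ORF1 divided the copies. The most frequent open reading frame, 1116 nt long and encoding 371 amino acids, was intact in 71 copies, and its place could be found in 120. The stretch before it had a median length of 745 bp (250 to 5356 bp) and the stretch from its end to the end of the listed copy 3566 bp. ORF2 and the 3′ UTR were not located within that stretch. Reads were densest before ORF1, with 272 reads over a summed 105.871 kb (2.57 reads per kb). ORF1 held 109 reads (0.814 per kb) and the remainder 262 (0.624 per kb). The region before ORF1 thus took 42.3% of the placed reads.

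Antisense reads were concentrated in the same stretch. Over the 6 libraries, 450 reads were sense and 194 antisense to their copy, and 125 of the antisense reads lay before ORF1. There they made up 46.0% of reads, against 17.4% in ORF1 and 19.1% after it. In shScr the antisense share was 42.9% and 44.2% before ORF1 and 24.8% and 17.6% from the ORF1 start onwards. In shTet1 it was 33.3% and 61.1% against 18.2% and 11.1%, and in shTet2 46.9% and 53.6% against 12.7% and 18.5%. The share before ORF1 was higher in 6 of 6 libraries, by 29.8 ± 12.8 percentage points (mean ± SD of the difference, n = 6, exact two-sided sign-flip permutation test, p = 0.0312, the smallest that 6 libraries allow). This comparison was chosen after the positions had been seen, and with any library left out the smallest possible p is 0.0625.

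**Figure D2:**
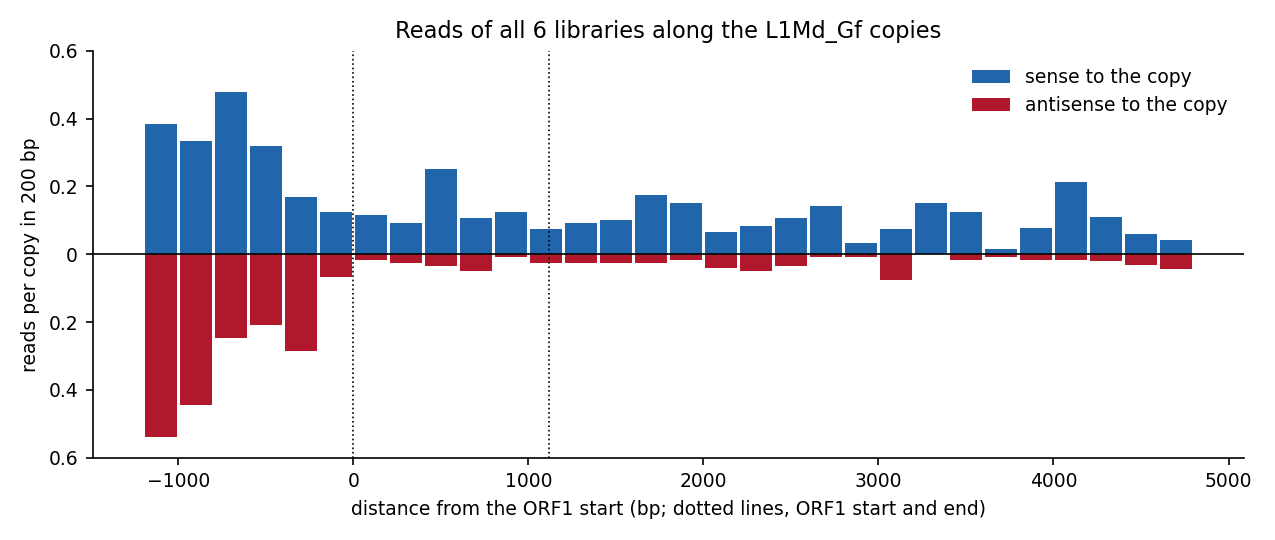
Reads of the 6 libraries per L1Md_Gf copy in windows of 200 bp (vertical axis, sense upwards and antisense downwards) by distance from the ORF1 start in bp (horizontal axis), for windows that 20 or more copies reach. Both strands are high before ORF1, where the antisense share was 46.0%, and antisense is low beyond it.

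Within the study's L1Tf amplicon, as far as the copies hold it, 61 reads were placed: 11 and 15 for shScr, 6 and 4 for shTet1 and 15 and 10 for shTet2. Of these 24 (39.3%) were antisense. Reads of both strands were thus placed in the L1Tf assay region of these copies, though only 61 over 91 amplicons. Since equal places were chosen at random, these reads need not have come from these copies.

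The antisense reads shared a stretch of sequence. The letters AAGATGGCG, searched on both strands, were in 31 of 194 antisense reads (15.98%) and in 0 of 450 sense reads, while the reverse complement, CGCCATCTT, was in 3 sense and in 0 antisense reads. By library, the 31 were 7 and 10 for shScr, 1 and 3 for shTet1 and 8 and 2 for shTet2, so that every library held some. Their median length was 23 nt and 28 lay within 1000 bp of the 5′ end. The letters stood on the antisense strand of 92 L1Md_Gf copies (76.03%), at 261 sites, and of 67.1% of L1Md_T but 5.95% of L1Md_A copies. A match of letters is no evidence of binding by YY1. The most frequent 12-base word of the antisense reads, TGGCGACCGCTG, was in 26 of all 194 antisense reads (13.4%). That of the sense reads, TAGTCTGAACAG, was in 27 of 450 (6%).

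The reads did not have one length. They were 15 to 75 nt long with a median of 26 nt, and 84 were 15 to 17 nt, 95 were 18 to 20 nt, 84 were 21 to 23 nt, 159 were 24 to 32 nt and 222 were longer. The most frequent length was 18 nt, with 30 sense and 18 antisense reads. The antisense share was 42.1% at 18 to 20 nt and 40.5% at 21 to 23 nt, and it was 25.8% at 24 to 32 nt and 22.5% in the longer reads. Reads before ORF1 were shorter, with a median of 22 nt against 33 nt in ORF1 and 30 nt after it. The antisense share and the short lengths thus went together with position.

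**Figure D3:**
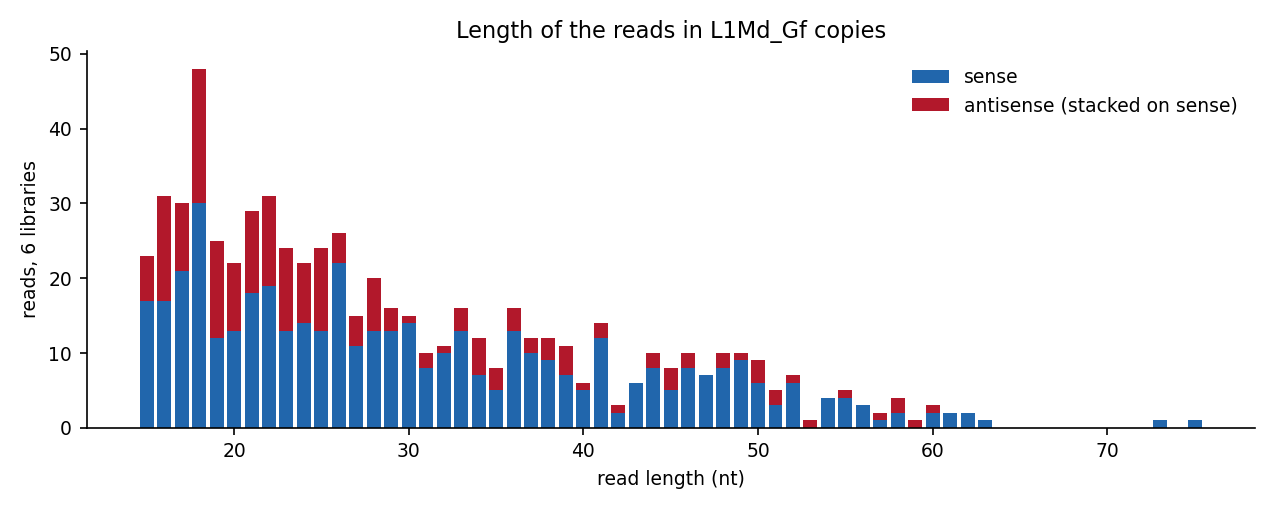
Number of L1Md_Gf reads of the 6 libraries (vertical axis) by read length in nt (horizontal axis), with antisense reads stacked on sense reads. Lengths run from 15 to 75 nt, with 84 reads of 21 to 23 nt and 159 of 24 to 32 nt.

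The ends of the reads were examined for the features by which piRNAs are known, a first base U and a 10-nt overlap between the 5′ ends of sense and antisense reads. The first base was T in 26.9% of all reads and in 27.04% of reads of 24 to 32 nt, where T made up 21.8% of all read bases, and A was the first base of 35.1% of all reads. By strand, of the 118 sense reads of 24 to 32 nt, 25.4% began with T and 35.6% with A, and of the 41 antisense reads 31.7% (13 reads) began with T, 39.0% with C and 9.76% with A, a split that was not tested. Of 20579 possible pairs of a sense and an antisense read of the same library, 4 overlapped by 10 nt at their 5′ ends, against 22 at 8 nt, 10 at 9 nt, 7 at 11 nt and 9 at 15 nt. Among reads of 24 to 32 nt, 0 of 1072 possible pairs overlapped by 10 nt. An excess at 10 nt was not detectable in this number of reads.

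The comparison of conditions asked whether depletion of TET1 or TET2 changed the reads in L1Md_Gf copies. The number of reads was 187 and 196 for shScr, 26 and 36 for shTet1 and 143 and 56 for shTet2. Both shTet1 libraries and both shTet2 libraries were below both shScr libraries. On the log2 scale the ratio of the mean counts was -2.63 for shTet1 (31 ± 7.07 against 191.5 ± 6.36 reads, mean ± SD, n = 2 each) and -0.94 for shTet2 (99.5 ± 61.5 reads), and the latter was -0.42 without shTet2 replicate 2 and -1.77 without replicate 1. The exact two-sided permutation test gave p = 0.333 for each, the smallest that 2 libraries against 2 allow. All L1 reads listed differed in the same direction, with 125478 and 128715 for shScr, 11566 and 23484 for shTet1 and 69360 and 34908 for shTet2, and the full number of reads sequenced per library was not used here. Sequencing depth and the amount of L1 small RNA therefore cannot be told apart in these counts, and both knockdowns were compared with the same shScr libraries.

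Shares do not depend on depth in this way. In each library 73.7% to 84.3% of the L1 reads lay in only 3 copies, none of them L1Md_Gf, so shares were taken of the L1 reads outside these. L1Md_Gf copies held 0.775% (95% Wilson interval 0.672 to 0.894) and 0.874% (0.760 to 1.00) in shScr. In shTet1 they held 0.854% (0.584 to 1.25) and 0.894% (0.646 to 1.24), and in shTet2 0.799% (0.679 to 0.941) and 1.02% (0.789 to 1.33). The intervals cover counting error only, since reads copied by PCR could not be told from separate molecules. The share differed from shScr by 0.05 percentage points in shTet1 and 0.0872 in shTet2, the libraries of the conditions overlapped, and the exact two-sided permutation test gave p = 0.667 for both.

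**Figure D4:**
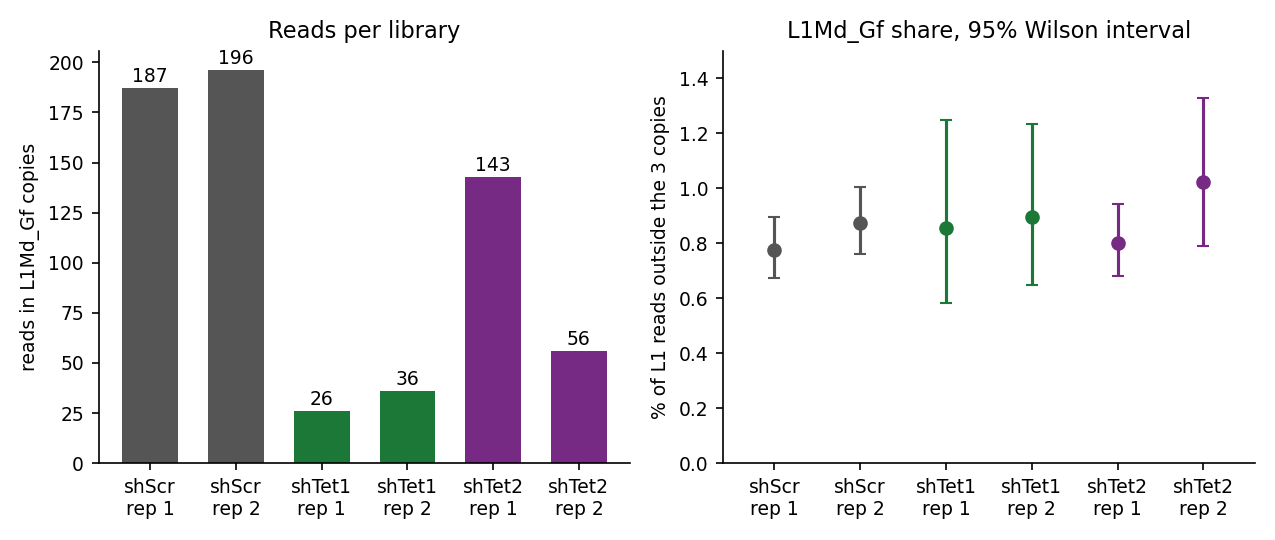
Left, reads placed in L1Md_Gf copies (vertical axis) in each library (horizontal axis). Right, their percent of the L1 reads outside the 3 copies with most reads, with 95% Wilson intervals for counting error: counts run from 26 to 196 whereas the shares lie between 0.775% and 1.02% with overlapping intervals.

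The same question was put to all classes together with limma on reads tallied per class. Of 21 classes tested, limma called 0 for shTet1 and 0 for shTet2 at an adjusted p of 0.05 (0% in each comparison), with 3 and 4 at an unadjusted p under 0.05. L1Md_Gf had a log2 fold change of 0.055 for shTet1 (SE 0.27, 95% interval -0.64 to 0.75, limma adjusted p = 0.938) and 0.081 for shTet2 (SE 0.16, -0.34 to 0.50, limma adjusted p = 0.960). Changes of L1Md_Gf relative to the other L1 classes that lie within these intervals could not be resolved at this depth. When reads of 1 position, strand and length were collapsed into 1, the values were -0.22 and -0.059, so even their direction depended on the counting.

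Strand, position and 2 length ranges of the reads were compared within the class, in a family of 8 tests. Antisense reads were 31.6% and 28.1% of L1Md_Gf reads for shScr, 26.9% and 36.1% for shTet1 and 28.0% and 35.7% for shTet2. The conditions overlapped, with differences of 1.71 ± 6.50 and 2.04 ± 5.47 percentage points (± the larger SD of the 2 groups, n = 2 each) and p = 1 in the exact permutation tests. Without shTet1 replicate 2 the first was -2.88 points, and without shTet2 replicate 2 the second was -1.83.

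DICER products are mostly 21 to 23 nt long, and reads in that range were 10.7% and 8.67% in shScr (20 and 17 reads). They were 15.4% and 11.1% in shTet1 (4 and 4 reads), and 18.9% and 21.4% in shTet2 (27 and 12 reads). Both knockdowns lay above both shScr libraries, shTet1 by 3.56 points and shTet2 by 10.5 points (20.2 ± 1.80% against 9.68 ± 1.43%, n = 2 each). The exact permutation test gave p = 0.333 for each (0.533 after Benjamini-Hochberg adjustment over the 8 tests). The unadjusted value is the smallest that 2 libraries against 2 allow, so neither could pass. The shTet1 difference was 1.43 points without shTet1 replicate 1 and 5.70 without shTet1 replicate 2. The 39 reads of this length in shTet2 were 39 distinct sequences in 29 copies, 15 of them antisense and 26 before ORF1. No single sequence or copy made up the share as placed. Because equal places were chosen at random, repeats of a sequence would be spread over other copies and classes, so these counts cannot show how many sources the share had. In L1Md_T copies outside the 3 named above the share was 9.53% and 10.7% in shScr and 10.03% and 10.7% in shTet2, and in L1Md_A copies 10.9% and 12% in shScr and 12.6% and 10.8% in shTet2. Whether the classes differed in this respect was not tested, and 95.2% of the L1Md_Gf reads of this length had a sequence that L1Md_T copies also carry.

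Reads of 24 to 32 nt were 25.1% and 20.9% for shScr, 30.8% and 30.6% for shTet1 and 25.9% and 26.8% for shTet2. Again both knockdowns lay above shScr, by 7.64 and 3.30 points (exact permutation p = 0.333 for each, 0.533 adjusted). Among reads of 18 to 32 nt alone the shTet1 difference was 4.43 points (larger SD 9.51, exact permutation p = 0.667) and the shTet2 difference -0.598 points. The shTet2 difference was 1.196 points without shScr replicate 2 and 5.41 without shScr replicate 1. In L1Md_T copies outside the 3 with most reads, 24 to 32 nt reads were 21.3% and 21.8% in shScr, 23.1% and 23.8% in shTet1. They were 20.4% and 20.6% in shTet2. In L1Md_A copies the conditions overlapped. The share of L1Md_Gf reads in the first 1000 bp from the 5′ end was 36.4% and 42.3% for shScr, 53.8% and 47.2% for shTet1 and 44.1% and 41.1% for shTet2. For shTet1 this was 11.2 points higher (50.5 ± 4.68% against 39.4 ± 4.23%, exact permutation p = 0.333, 0.533 adjusted), and for shTet2 the libraries overlapped with shScr (3.21 points, p = 0.667 in the exact test). That value was 0.217 points without shScr replicate 1 and 6.2 without shScr replicate 2. L1Md_A copies had 37.1% and 42.6% in shScr and 50.3% and 48.5% in shTet1. L1Md_T copies outside the same 3 had 33.3% and 36.1% in shScr and 45.4% and 37.1% in shTet1. Both shTet1 libraries thus lay above both shScr libraries in these classes too. The median length of L1Md_Gf reads was 29 and 26 nt in shScr and 22 and 28.5 nt in shTet1, and the part of read length in these shares was not tested.

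The L1Md_Gf reads were then set against those of L1Md_A and L1Md_T in the same libraries, in 8 exact two-sided sign-flip permutation tests over 6 libraries. The antisense share was 26.9% to 36.1% in L1Md_Gf and 14.1% to 17.3% in L1Md_A, higher in L1Md_Gf in 6 of 6 libraries by 15.6 ± 3.63 points (permutation p = 0.0312, adjusted p = 0.125). Among reads beyond the first 1000 bp, a version added after seeing the data, this difference was 5.45 ± 4.07 points (permutation test, adjusted p = 0.125). From L1Md_T, with 24.9% to 32.2%, it differed by 1.58 ± 4.93 points, higher in 4 of 6 libraries (permutation p = 0.438, adjusted p = 0.500). The range over libraries thus overlapped that of L1Md_T and lay apart from that of L1Md_A. An L1Md_T copy also carried the sequence for 91.0% of the L1Md_Gf reads and an L1Md_A copy for 72.7%. Equal places were chosen at random, and the part of this sharing in the comparison was not tested.

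In position the order was different. The share in the first 1000 bp exceeded that of L1Md_T in 6 of 6 libraries, by 6.18 ± 2.88 points (permutation p = 0.0312, adjusted p = 0.125), and differed from that of L1Md_A by -0.190 ± 1.97 points (permutation p = 0.781, adjusted p = 0.781). Listed copies had a median length of 5408 bp in L1Md_Gf, 6080 bp in L1Md_T and 6012.5 bp in L1Md_A. The window is thus a larger part of an L1Md_Gf copy, and with a median of 745 bp before ORF1 it often reached into ORF1. The part of copy length in these differences was not tested. The differences in the shares of 21 to 23 nt and 24 to 32 nt were between 2.76 and 4.85 points, with adjusted permutation p from 0.167 to 0.458. None of the 8 tests passed after adjustment. The smallest raw permutation p that 6 libraries allow is 0.0312. The tests that reached it had an adjusted p of 0.125, so reaching it was not enough to pass. For the 21 to 23 nt share the excess over L1Md_T was 8.85 and 10.8 points in the shTet2 libraries and -2.05 to 1.66 points in the other 4. This split by condition was not tested, and the shTet2 shares of L1Md_Gf rest on 27 and 12 reads.

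**Figure D5:**
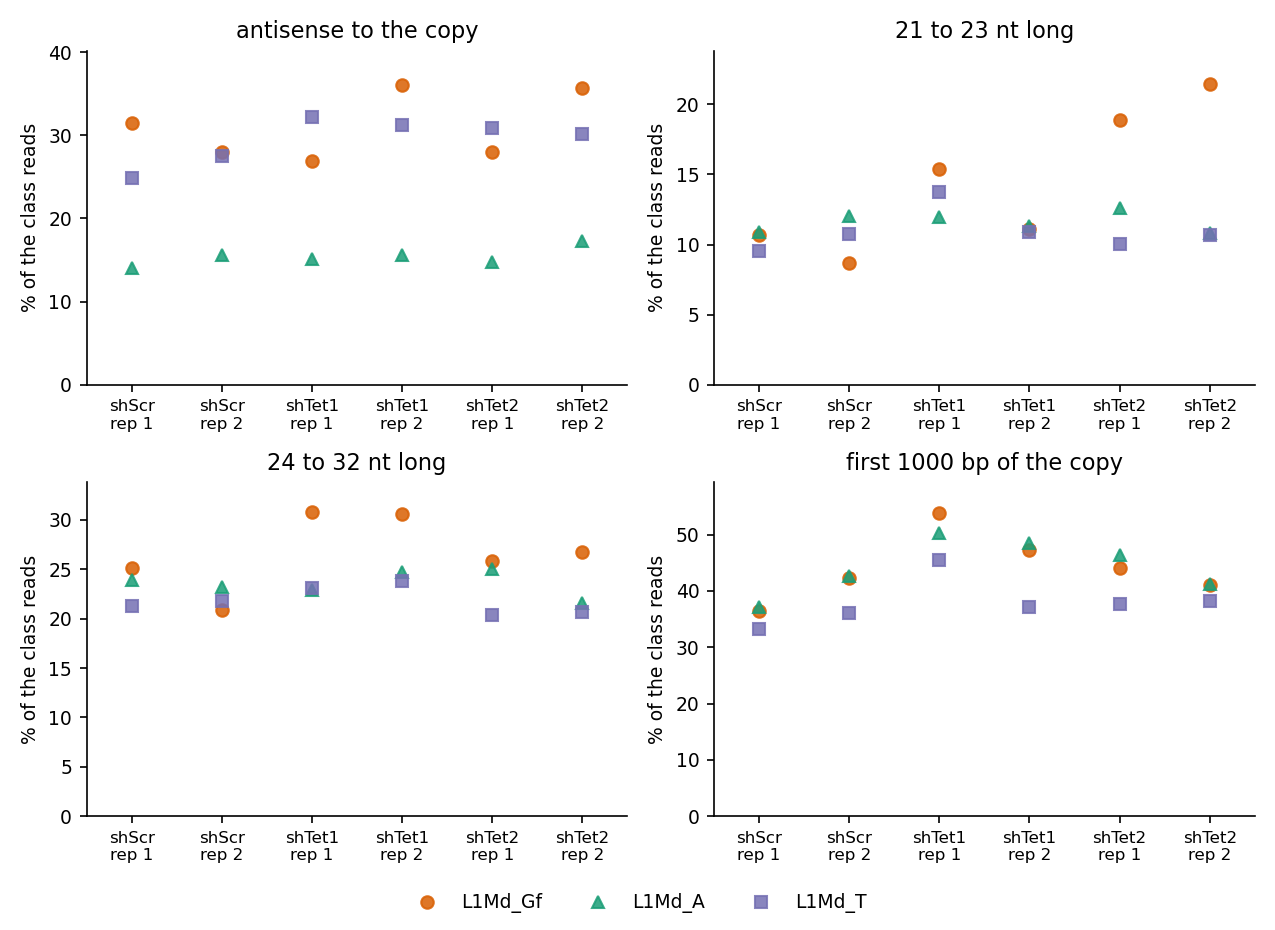
Percent of the reads of each class (vertical axes) that were antisense, 21 to 23 nt, 24 to 32 nt or in the first 1000 bp of the copy, by library (horizontal axes), for L1Md_Gf (circles), L1Md_A (triangles) and L1Md_T (squares). The antisense share of L1Md_Gf lies near that of L1Md_T and above that of L1Md_A in all 6 libraries, and its 21 to 23 nt share is 18.9% and 21.4% in shTet2.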

How the data were processed

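Per the labels and the study's methods, the authors used Trim Galore 0.3.3 to trim small RNA reads, keeping those of 15 nt or more, and Bowtie2 2.1.0 for alignment to mm9, with reads of several equal hits placed at random. Libraries had been size-selected at 120 to 150 bp. Each line of the deposited files is a read with its own place and the place, class and strand of an L1 copy. They hold no counts, scores or library totals (the unit is "other"), and how copies were chosen is not given in the sources used here. Depth was 11566 to 128715 L1 reads per library, so 3 L1Md_Gf reads correspond to between 1.53% and 11.5% of a library's reads in these copies.

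Members, lists and tests were chosen with earlier results of these data known. Read sequences were taken from the NCBIM37 genome (mm9) and counted over its chromosomes with numba 0.67.0, genes came from GENCODE vM1, and copy coordinates are as the files give them. Primer sequences came from the study's primer list, and edits were counted with edlib 1.3.9.post1. ORF1 was the most frequent open reading frame of at least 900 nt, found in other copies by a 60-nt anchor with at most 12 edits. Position is the distance of a read's midpoint from the 5′ end of its copy. Conditions were compared with exact two-sided permutation tests (scipy 1.17.1) and reads tallied per class with limma 3.58.1 (voom, TMM factors by formula, a class needing 10 reads or more in 2 libraries or more, Benjamini-Hochberg adjustment). In data simulated for shTet1 over shScr, in which 5 of 21 classes differed by a log2 value of 2, 78.8% of changed classes were recovered and 2.85% of unchanged classes were called. The changed classes were drawn outside the 2 largest. The dispersion was set to 0.05 and not estimated from these libraries, so the recovery is not that of the real comparison. Named were the 5 copies with most reads, the 6 most frequent sequences of 18 to 30 bases, and up to 4 carried by L1Md_Gf copies only. The sequences were chosen outside copies on chromosome 18, with ties broken by the number of libraries and then alphabetically. Alternatives were no TMM, other filters, lengths, windows and placements, reads counted once, the 3 copies included or left out, each replicate left out and a replicate block.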

Additional observations from a re-analysis of the deposited data

How the results depend on the processing

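Of 226 alternative values for 25 results, 202 kept the direction and side of the threshold, 17 changed direction, 6 no longer passed and 1 count moved. Values without a p were given the side of the main value. Permutation tests of 2 libraries against 2 cannot give a p under 0.333. For these values the side could not change, and only the direction was compared. With reads of 1 position, strand and length collapsed into 1, the limma log2 fold change of L1Md_Gf was -0.22 (shTet1) and -0.059 (shTet2), and limma called 1 class for shTet1, L1VL1, in place of 0. Among reads of 18 to 32 nt, the antisense difference for shTet2 was -1.89 points, the 24 to 32 nt difference 4.43 for shTet1 and -0.598 for shTet2, L1Md_Gf minus L1Md_A in the first 1000 bp 3.83 and L1Md_Gf minus L1Md_T in antisense -2.35. The window of 500 bp gave 2.86 for L1Md_Gf minus L1Md_A, and reads beyond 1000 bp, a version added after seeing the data, gave -3.70 points for the antisense share against L1Md_T and 5.45 in place of 15.6 against L1Md_A. Sequences carried by L1Md_Gf copies only gave -5.56 points for the first 1000 bp in shTet1 and, added after seeing the data, -0.0392 points for the share of L1 reads in shTet2. The causes were not tested. Leaving out each library in turn gave -0.0022 to 0.34 for the L1Md_Gf log2 fold change in shTet2, -2.88 to 6.31 and -1.83 to 5.91 points for the antisense share in shTet1 and shTet2, -0.932 to 0.221 points against L1Md_A in the first 1000 bp, -0.0248 to 0.199 points for the share in shTet2, and 25.8 to 32.8 points for the antisense share before minus from ORF1, where 5 libraries cannot give an exact permutation p under 0.0625. With 1 library left in a group, limma assumes that it varies like the others. The replicate numbers were not taken as pairs, since no label ties them to a batch. Deviations of same-numbered libraries correlated positively over classes. The r was 0.0590 for shScr with shTet1, 0.586 for shScr with shTet2 and 0.435 for shTet1 with shTet2. Whether the numbers mark a batch was not tested. With a replicate block, limma gave 0.075 and 0.13 for L1Md_Gf and called 0 classes in each comparison. Depth limits all of this, since shTet1 rests on 62 L1Md_Gf reads.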
